A study of Rattus norvegicus with 7 samples.

Results

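Somatostatin, vasoactive intestinal peptide (VIP) and pituitary adenylate cyclase-activating polypeptide (PACAP) are neuropeptides, and the genes described here are those of the 3 peptides and their receptors. They were chosen by name, from 10 listed rat genes: the ligands Sst, Vip and Adcyap1, the somatostatin receptors Sstr1 to Sstr4, the VIP receptors Vipr1 and Vipr2, and the PACAP receptor Adcyap1r1. A transcript probe was taken for a gene when its accession was a RefSeq transcript of that gene. This gave 12 of the 33849 transcript probes on the array and 9 of the 10 genes. For Vip no probe matched, so the level of the peptide itself was not analysed here. Sstr2, Sstr4 and Adcyap1r1 had a pair of probes each, and both probes of a pair are given.

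RNA came from the whole brain of adult male Wistar rats and was hybridized to 1-colour arrays, with 1 rat on each array. The groups were 4 rats of the alcohol-preferring line (P 1 to P 4) and 3 rats of the alcohol non-preferring line (NP 2 to NP 4). The lines were bred selectively for high or low voluntary alcohol drinking, so the groups differ in breeding history as a whole and not in a single allele. The rats of both lines were alcohol naïve and doubly housed.

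Somatostatin is released mainly by inhibitory interneurons and by hypothalamic neurons that restrain growth hormone secretion. Its receptors couple to Gi proteins, which lower cyclic AMP, open inward-rectifier potassium channels and close calcium channels. VIP and PACAP are related peptides whose receptors couple to Gs and raise cyclic AMP. VIP marks another class of cortical interneurons and neurons of the circadian clock, and PACAP is known for roles in stress responses. Sst is itself a textbook target of cyclic AMP, through the cyclic AMP response element in its promoter.

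That element is the palindrome TGACGTCA. Promoter windows of 300 bases, from 250 before to 50 after the annotated gene start, were available from RefSeq (GRCr8) for all 10 genes, Vip included. The full palindrome occurred in the windows of 2 of them, Sst and Sstr2, and in 1.83% of 33469 windows in the genome. The windows of these 2 genes are shown because they carry the motif, in capitals, that cyclic AMP signalling is known to act on. The letters are from the plus strand, chr11:90461296-90461595 for Sst and chr10:99163103-99163402 for Sstr2.
Sst: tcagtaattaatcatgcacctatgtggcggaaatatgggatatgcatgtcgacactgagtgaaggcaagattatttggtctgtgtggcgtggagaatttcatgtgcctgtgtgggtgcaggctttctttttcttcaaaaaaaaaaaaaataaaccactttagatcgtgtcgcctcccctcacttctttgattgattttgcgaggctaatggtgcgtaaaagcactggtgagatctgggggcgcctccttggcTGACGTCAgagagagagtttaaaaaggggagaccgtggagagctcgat
Sstr2: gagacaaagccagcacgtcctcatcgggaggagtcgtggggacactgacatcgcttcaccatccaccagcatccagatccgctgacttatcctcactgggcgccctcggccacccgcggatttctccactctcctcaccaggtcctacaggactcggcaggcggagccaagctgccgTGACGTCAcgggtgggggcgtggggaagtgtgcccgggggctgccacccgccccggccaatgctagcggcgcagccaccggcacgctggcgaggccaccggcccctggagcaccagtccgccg
The shorter TGACG, read on both strands and contained in the palindrome, occurred in 5 of the 10 windows, those of Sst, Sstr1, Sstr2, Vip and Vipr1, and in 21.2% of all windows. These matches describe letters in a window and not binding of a factor.

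Every one of the 12 probes passed the filter, which asked for a signal above local background on at least 3 of the 7 arrays. All but the Sstr3 probe were above background on all 7. Values are log2 normalized signals, and negative control spots had medians from 6.19 to 6.33 before normalization between arrays. Levels of different probes are not compared, because probes differ in how strongly they bind. In RNA from a whole brain, fewer cells of a type and less RNA per cell cannot be told apart.

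No probe of these systems was called different between the P and NP lines. By limma with Benjamini-Hochberg adjustment over all 29003 tested probes, 0 of 12 passed an adjusted p of 0.05, where 0.29% of all probes did. At an unadjusted p under 0.05 there were also 0 of 12, where 11.5% of all probes passed. For none of the 12 were the P values all above or all below the NP values, where 13.3% of the 27255 probes with 7 values showed such a separation. The median difference of the 12 was 0.05 on the log2 scale (P minus NP), beside 0.01 over all tested probes.

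The ligand Sst (probe GE19884) read 11.46, 11.40, 11.20 and 11.54 in P 1 to P 4, against 11.27, 11.37 and 10.88 in NP 2 to NP 4. Most P rats lay above the NP rats, but P 3 lay below both NP 2 and NP 3, and NP 4 was the lowest. P averaged 11.40 ± 0.15 (SD, n = 4), and NP averaged 11.17 ± 0.26 (SD, n = 3). The difference was 0.22 ± 0.15 (SE), with a 95% interval from -0.10 to 0.55 (adjusted p = 0.553), which is a 1.17-fold ratio of P to NP with bounds of 0.931 and 1.46. Without NP 4 the direction stayed and the difference was the smallest of the fits that left out an array, at 0.08.

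Adcyap1, which encodes PACAP (probe GE1153145), was among the steadiest of the set. It read 10.00, 10.08, 9.96 and 10.03 in P 1 to P 4, against 10.05, 9.87 and 9.86 in NP 2 to NP 4. The P rats lay within a narrow band, and NP 2 fell inside that band. The difference was 0.09 ± 0.11 (SE, interval -0.15 to 0.34, adjusted p = 0.746). Its spread within the lines was smaller than that of all but 4.22% of the tested probes.

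Among the somatostatin receptors, Sstr1 (probe GE19921) read 8.45, 8.40, 8.15 and 8.02 in P 1 to P 4, against 8.18, 8.14 and 8.31 in NP 2 to NP 4. P 1 and P 2 lay above all NP rats, while P 4 lay below them all. The mean difference was 0.04 ± 0.14 (SE, interval -0.26 to 0.35, adjusted p = 0.913).

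Sstr2 was read by a pair of probes. GE21868 read 9.29, 9.34, 9.24 and 9.21 in P 1 to P 4, against 9.27, 9.29 and 9.28 in NP 2 to NP 4. All 7 rats were thus nearly level on this probe, and its difference was -0.01 ± 0.10 (SE, interval -0.24 to 0.22, adjusted p = 0.973). GE20674 read 8.26, 8.42, 7.77 and 7.89 in P 1 to P 4, against 8.03, 7.92 and 7.82 in NP 2 to NP 4. Here the P rats divided, with P 1 and P 2 above every NP rat and P 3 below every one. Its difference was 0.16 ± 0.17 (SE, interval -0.21 to 0.53, adjusted p = 0.709).

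The Sstr3 probe (GE22157) was dim, with values from 6.09 to 6.69 in P and from 6.30 to 6.42 in NP, close to the negative controls. It was above background in P 1 and P 2 only among the P rats, and in all 3 NP rats. The difference of 0.03 ± 0.15 (SE, adjusted p = 0.953) is for a transcript near the limit of what the arrays could read.

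For Sstr4 the largest difference of the set was found, and it came from a single array. Probe GE21889 read 6.78, 6.77, 6.61 and 7.26 in P 1 to P 4, against 8.60, 6.83 and 6.78 in NP 2 to NP 4. NP 2 stood more than 1 log2 unit above every other rat, while NP 3 and NP 4 lay among the P rats. The second probe for the same transcript, GE20130, read 6.64, 6.52, 6.94 and 6.56 in P 1 to P 4, against 6.41, 6.56 and 6.69 in NP 2 to NP 4, and there NP 2 was the lowest of the 7. The spot of GE21889 on NP 2 had an intensity of 458.8 over a local background of 102, where the other 6 arrays had intensities of 104.8 to 213.4 over backgrounds of 52 to 90. It carried no quality flag. The difference for GE21889 was -0.55 ± 0.38 (SE, adjusted p = 0.573) with all arrays and 0.05 without NP 2, while GE20130 differed by 0.11 ± 0.14 (SE, adjusted p = 0.765). The raised value of NP 2 was therefore seen by 1 of the 2 probes for Sstr4.

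**Figure D1:**
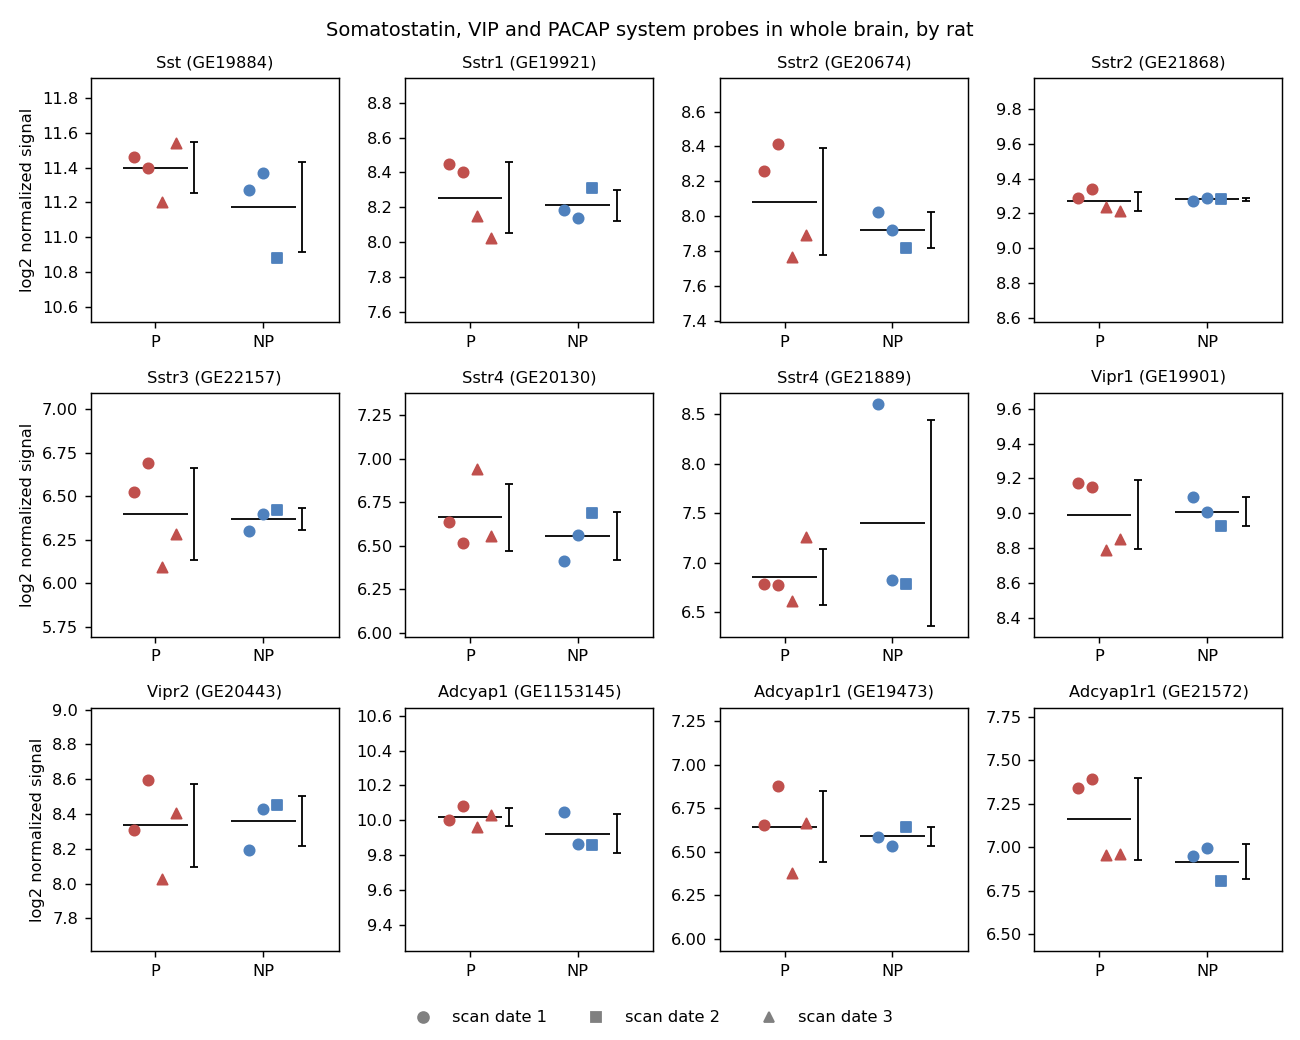
Log2 normalized signal of the 12 probes in each rat, with P on the left and NP on the right of each panel; horizontal lines are group means, the bars beside them are 1 SD, and point shapes give the scan date. In every panel the P and NP values overlap, and NP 2 stands alone at 8.60 on Sstr4 probe GE21889.

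Of the VIP receptors, Vipr1 (probe GE19901), a VIP and PACAP receptor found in cortex, read 9.17, 9.15, 8.79 and 8.85 in P 1 to P 4, against 9.09, 9.01 and 8.93 in NP 2 to NP 4. The NP rats lay between the upper and the lower pair of P rats. The difference was -0.02 ± 0.13 (SE, interval -0.31 to 0.28, adjusted p = 0.970). Vipr2 (probe GE20443), the receptor of the circadian clock neurons, read 8.31, 8.60, 8.03 and 8.41 in P 1 to P 4, against 8.19, 8.43 and 8.45 in NP 2 to NP 4. P 2 was the highest and P 3 the lowest of the 7 rats, and the difference was -0.02 ± 0.15 (SE, interval -0.36 to 0.31, adjusted p = 0.958).

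Adcyap1r1, the receptor selective for PACAP, gave the second largest difference. Probe GE21572 read 7.34, 7.39, 6.96 and 6.96 in P 1 to P 4, against 6.95, 7.00 and 6.81 in NP 2 to NP 4. P 1 and P 2 lay above all NP rats, while P 3 and P 4 lay among them. The difference was 0.24 ± 0.15 (SE, interval -0.08 to 0.57, adjusted p = 0.520). The dimmer probe GE19473 read 6.65, 6.88, 6.38 and 6.67 in P 1 to P 4, against 6.59, 6.53 and 6.65 in NP 2 to NP 4, and differed by 0.06 ± 0.13 (SE, adjusted p = 0.883).

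On the probes of Sstr1, Sstr2, Sstr3 and Vipr1 and on Adcyap1r1 probe GE21572, P 1 and P 2 both lay above P 3 and P 4. This division of the P rats followed the scan dates in the file headers. The probes of Sst, Adcyap1, Vipr2 and Sstr4 and Adcyap1r1 probe GE19473 did not divide in this way. The share of all probes that divide so was not counted, so it is not known whether these probes stand out. Date 1 held P 1, P 2, NP 2 and NP 3. Rat NP 4 was alone on date 2, and date 3 held only P 3 and P 4. A scan date is not an extraction or hybridization date, and within the P line it cannot be told apart from differences between these pairs of rats.

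Within date 1, with 2 P and 2 NP rats, 11 of the 12 probes were higher in P, where 53.8% of all probes were, and over all arrays the count was 8 of 12. The median of the 12 was 0.13, beside 0.03 over all probes. None of the 12 passed the adjusted threshold, which 6.4% of all probes did. At an unadjusted p under 0.05 there were 2 of the 12, where 27% of all probes passed, so their share was below that of the array. They were Adcyap1r1 probe GE21572 and Sstr2 probe GE20674. The first differed by 0.39 ± 0.12 (SE, interval 0.11 to 0.67, adjusted p = 0.0859). The Sstr2 probe differed by 0.36 ± 0.13 (SE, interval 0.07 to 0.66, adjusted p = 0.118). Sst differed there by 0.11 ± 0.13 (SE, adjusted p = 0.613) and Adcyap1 by 0.08 ± 0.13 (SE, adjusted p = 0.727). In a fit blocked by scan date, which compares the lines on these 4 arrays alone, 5.72% of all probes and 0 of the 12 were called, with adjusted p = 0.0825 for Adcyap1r1 probe GE21572 and 0.118 for Sstr2 probe GE20674.

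**Figure D2:**
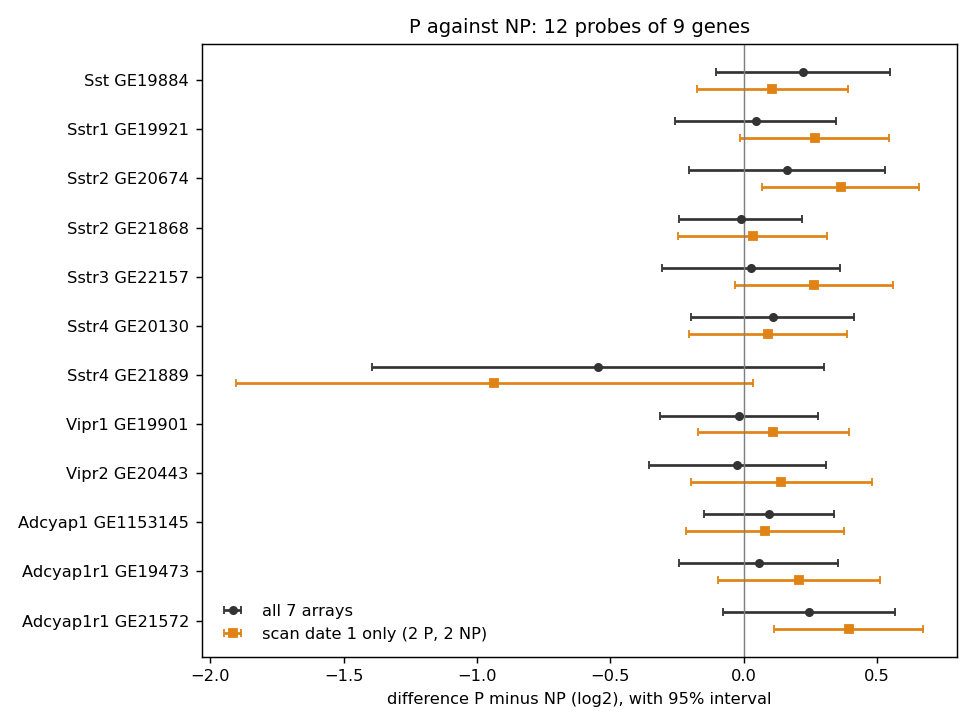
Difference between P and NP (log2, P minus NP) with its 95% interval for each of the 12 probes, over all 7 arrays (black circles) and over the 2 P and 2 NP arrays of scan date 1 (orange squares). All black intervals include 0, and the orange intervals of Sstr2 probe GE20674 (0.07 to 0.66) and Adcyap1r1 probe GE21572 (0.11 to 0.67) do not.

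Within the P line, 10 of the 12 probes were lower in the rats of date 3 (P 3 and P 4) than in those of date 1 (P 1 and P 2). The other 2 were higher, where 46.6% of all probes were. The median was -0.24, beside -0.03 over all probes. At an unadjusted p under 0.05 there were 5 of the 12, where 30.5% of all probes passed. The comparison of the lines within date 1 also uses P 1 and P 2, so the results are not independent. Only Sstr2 probe GE20674 passed the adjusted threshold. It averaged 7.83 in P 3 and P 4 and 8.34 in P 1 and P 2. The difference was -0.51 ± 0.14 (SE, interval -0.83 to -0.19, limma adjusted p = 0.042). This call is 1 of 12, where 13.9% of all 28915 probes were called. The share is thus no higher than that of the array as a whole. The call was lost, at a difference no smaller, with plain background subtraction (-0.63, adjusted p = 0.128) and in the authors' processed values (-0.58, adjusted p = 0.139), where the counts over all probes were 1 and 2. The second Sstr2 probe, GE21868, differed by only -0.09 ± 0.14 (SE, adjusted p = 0.701).

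The larger of these lower values were those of receptor probes, which make up most of the set. They were Adcyap1r1 probe GE21572 at -0.41 ± 0.14 (SE, adjusted p = 0.0725), Vipr1 at -0.34 ± 0.14 (SE, adjusted p = 0.123) and Sstr1 at -0.34 ± 0.14 (SE, adjusted p = 0.131), none of which passed. Sstr3 was not above background in P 3 or P 4, so the size of its difference is not known. The means of the pairs gave a 1.3-fold lower value there than in P 1 and P 2. For that ratio P 3 and P 4 were set at the higher of each array's dimmest signal above background and the probe's own. The ratio is not a lower bound, because an array's dimmest signal is not the limit of this spot. It also leaves out sampling error. The limma fit to the values as read gave an interval from -0.75 to -0.09 and no call (adjusted p = 0.0853). Spot intensities were 97.39 and 93.24 in P 1 and P 2 and 89.88 and 91.73 in P 3 and P 4. Local backgrounds were 58 and 52 against 74 and 67. The ligand differences were small. Sst was at -0.06 ± 0.16 (SE, interval -0.41 to 0.29, adjusted p = 0.825). Adcyap1 was at -0.04 ± 0.14 (SE, interval -0.35 to 0.27, adjusted p = 0.876). Each of these intervals reaches the values of Vipr1 and Sstr1. Receptor probe GE21868 of Sstr2 also differed little (-0.09). Both Sstr4 probes ran the other way, at 0.17 and 0.16. Whether receptors and ligands differ in this was not tested. Of the markers of other cell types, 2 of 5 astrocyte genes were called lower in P 3 and P 4, and 1 of 3 endothelial genes was called lower (Kdr, -0.83, adjusted p = 0.0105). In each direction 1 of 5 microglial genes was called. The neuronal, oligodendrocyte, choroid plexus, pituitary, erythroid and hypothalamic lists had no call. Among all named genes 15.7% were called. Of the other astrocyte genes Aqp4 (0.48) and Slc1a3 (0.12) ran higher and S100b (-0.26) lower. Of the other endothelial genes Flt1 (0.13) ran higher and Cldn5 (-0.24) lower. The part of these cell types in the differences was not tested.

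**Figure D3:**
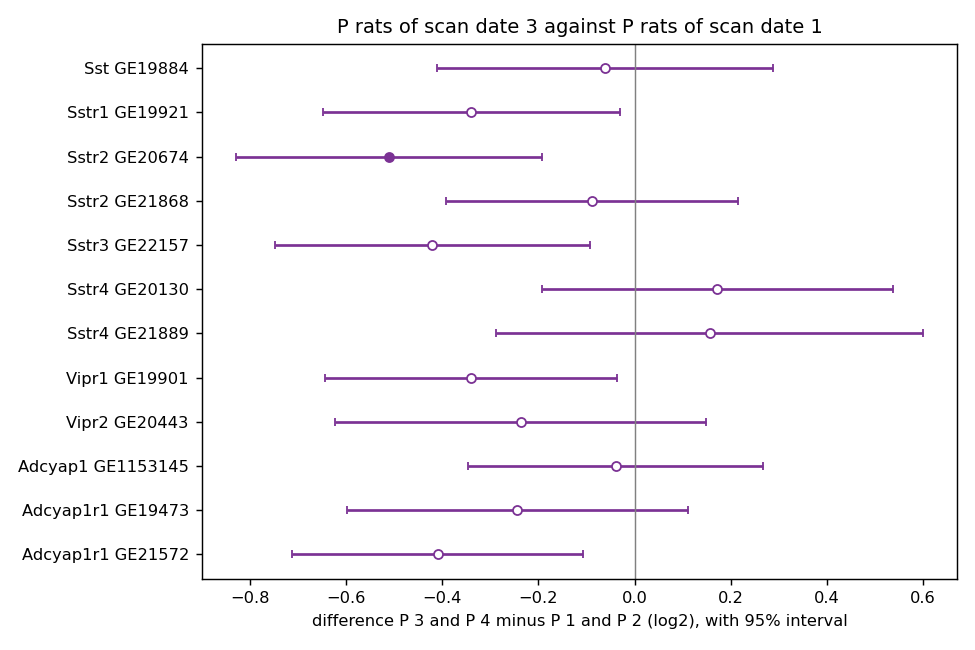
Difference between P rats scanned on date 3 (P 3 and P 4) and P rats scanned on date 1 (P 1 and P 2), in log2 with its 95% interval, for the 12 probes; the filled point passed an adjusted p of 0.05. Sstr2 probe GE20674, at -0.51, is the only filled point. The ligands Sst and Adcyap1 and the receptor probe GE21868 of Sstr2 lie near 0. The Sstr3 point rests on P 3 and P 4 values not above background.

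Markers of brain cell types were checked in the same arrays. Over the 9 marker lists 32 genes could be tested, and none was called between the lines. At an unadjusted p under 0.05 there were 4, where 11.4% of named genes passed. The fit blocked by scan date called Aif1, a microglial gene (-1.23, adjusted p = 0.0155), and Kdr, an endothelial receptor (0.75, adjusted p = 0.0255), where 5.58% of named genes were called. With the block every other microglial gene ran opposite to Aif1, from 0.006 for Cx3cr1 to 0.29 for Itgam. Of the other endothelial genes Flt1 ran opposite to Kdr (-0.20) and Cldn5 the same way (0.22). The calls therefore do not describe these lists as a whole. Of the 3 neuronal genes tested only Uchl1 was above background on all 7 arrays, and Snap25 was on 3. Stmn2 read 10.90 to 11.04 on 3 arrays. Its spots on the remaining arrays carried a quality flag and were treated as missing, so they do not show a low signal. The mean of the neuronal list ran from 9.48 to 9.80 in P and from 9.47 to 9.94 in NP. It leaves out Stmn2 in P 1, P 2, P 4 and NP 3, where that gene was missing. The arrays thus average different genes, and these means cannot be compared between rats or lines. All 5 astrocyte and 5 microglial genes, 4 of 5 oligodendrocyte genes and all 4 choroid plexus genes were above background on all 7 arrays. The remaining oligodendrocyte gene, Mog, was missing in P 3 and P 4 for a quality flag and read 10.97 to 11.66 elsewhere. Of the 3 pituitary genes tested, 2 were above background on all 7. The mean of that list ran from 7.56 to 8.25 in P and from 7.60 to 8.28 in NP. These means hide the spread of Cga, which ran from 6.9 to 9.2 in P and from 7.5 to 9.1 in NP. Over all 7 rats Prl ran from 6.0 to 6.7 and Lhb from 8.9 to 9.4. Whether the rats differed in pituitary tissue was not tested.

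Around the receptors, 8 lists of related genes were compared between the lines. Of the 82 genes tested in them 0 were called by limma, where 0.176% of 5677 named genes were, and 3 had an unadjusted p under 0.05, where 11.4% of named genes did. These 3 were Ghrhr, Gad2 and Nr4a2. A gene stands here for its brightest probe.

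Of 8 related ligands and receptors, Ghrhr, the receptor of growth hormone-releasing hormone and a relative of the VIP receptors, had the smallest p. It read 8.63, 8.93, 8.26 and 8.39 in P 1 to P 4, against 7.83, 7.79 and 7.92 in NP 2 to NP 4. No NP rat reached the lowest P rat. The difference was 0.71 ± 0.16 (SE), which missed the threshold over all probes (adjusted p = 0.185) and passed in the fit blocked by scan date (0.97 ± 0.14, SE, adjusted p = 0.0111). Cort, the somatostatin-like peptide cortistatin, differed by 0.10 ± 0.12 (SE), and Sctr, the secretin receptor, by 0.22 ± 0.14 (SE). The list median was 0.02, beside 0.03 over all named genes.

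The peptide processing list, 8 genes of the dense-core vesicle, had a median of -0.07. Its smallest p was that of Pcsk1n, an inhibitor of prohormone convertase (0.31 ± 0.16, SE, adjusted p = 0.461). Pcsk2, a convertase that cleaves prohormones such as prosomatostatin, differed by 0.10 ± 0.11 (SE), and Cpe, which trims the cut peptides, by -0.25 ± 0.14 (SE). Among 7 peptide-degrading enzymes the median was 0.08, and Nln, neurolysin, had the smallest p (0.22 ± 0.13, SE, adjusted p = 0.526). Mme, neprilysin, which degrades somatostatin, differed by 0.08 ± 0.14 (SE).

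On the Gs side 16 genes had a median of 0.02, and Ramp1, an accessory protein of related receptors, had the smallest p (0.20 ± 0.12, SE, adjusted p = 0.508). Creb1, the factor that binds the cyclic AMP response element, differed by -0.05 ± 0.11 (SE). On the Gi side 14 genes had a median of -0.02, and Gnai3, an inhibitory G protein subunit, had the smallest p (-0.32 ± 0.14, SE, adjusted p = 0.434). Kcnj9, a subunit of the potassium channel that Gi opens, differed by -0.03 ± 0.16 (SE).

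Among 12 interneuron genes the median was 0.02. Gad2, a GABA-synthesizing enzyme, had the smallest p. It read 6.66, 6.66, 6.78 and 6.68 in P 1 to P 4, against 6.99, 6.94 and 7.16 in NP 2 to NP 4. All P rats lay below all NP rats, and the difference of -0.33 ± 0.11 (SE) missed the threshold (adjusted p = 0.340). Gad1, which makes GABA in the same cells, differed by 0.08 ± 0.15 (SE), and Calb2, which many VIP interneurons carry, by 0.16 ± 0.11 (SE).

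The 12 cyclic AMP-responsive early genes had a median of -0.16. Nr4a2, a nuclear receptor, had the smallest p (-0.57 ± 0.19, SE, adjusted p = 0.332), and Fos differed by -0.17 ± 0.23 (SE). In the fit blocked by scan date the median of these early genes turned to 0.14. In the growth hormone and prolactin list 6 genes had a median of -0.10, which turned to 0.20 with the block, and Prlr, the prolactin receptor, differed by 0.39 ± 0.18 (SE, adjusted p = 0.435) over all arrays.

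In the fit blocked by scan date 5 of the 82 list genes were called, where 5.58% of named genes were. Besides Ghrhr they were Gnaz (-0.56, adjusted p = 0.0393), Calb1 (-0.73, adjusted p = 0.0416), Tac1 (-0.62, adjusted p = 0.0489) and Igf1 (-0.69, adjusted p = 0.0372). Over all 7 arrays Gnaz differed by -0.22 ± 0.25, Calb1 by -0.40 ± 0.19, Tac1 by -0.15 ± 0.26 and Igf1 by -0.28 ± 0.23 (SE), with no call. Within the P line all 4 were higher in P 3 and P 4 than in P 1 and P 2, by 0.89, 0.50, 0.96 and 0.82 in that order. Calb1 alone of them missed the threshold there (adjusted p = 0.097). Both comparisons use P 1 and P 2, so their opposite signs are not independent. These 4 were named after their values were seen. Gnaz is a Gi family subunit, Calb1 and Tac1 mark sets of inhibitory neurons, and Igf1 is the growth factor that growth hormone raises.

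Within the P line, between dates 3 and 1, 22 of the 82 list genes were called, where 15.7% of named genes were. Among the 12 early genes 5 were called lower in P 3 and P 4 and none was called higher. Fos (-0.56) and Junb (-1.14) were among the 5. The early genes not called ran both ways, such as Crem (0.42) and Nr4a2 (-0.51). On the Gs side 4 of 16 were called lower and 1 was called higher. Those called lower were the adenylyl cyclases Adcy3 (-0.63), Adcy5 (-0.56) and Adcy8 (-0.54) and the phosphodiesterase Pde4a (-0.77). The gene called higher was Rapgef3 (0.63), and the cyclase Adcy2 (0.26) ran higher without a call. The median of this list was -0.06, beside -0.05 over all named genes. On the Gi side 3 of 14 were called lower and 2 were called higher, with Gnai2 at -1.09 and Gnaz at 0.89. These genes too were named after their values were seen, and they rest on the same setting under which the whole array gave 4030 calls.

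**Figure D4:**
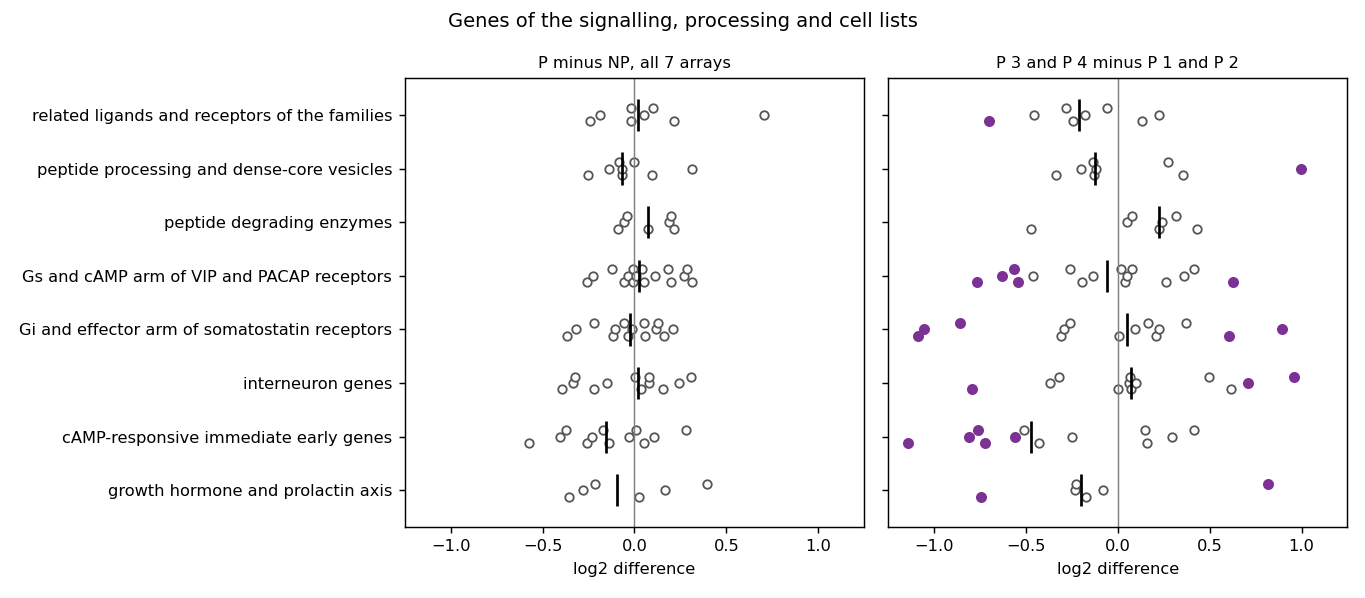
Log2 differences of the genes in 8 lists, between P and NP over all 7 arrays (left) and within the P line, P 3 and P 4 minus P 1 and P 2 (right); each circle is a gene, filled where the adjusted p was under 0.05, and black bars are list medians. No circle is filled on the left, and on the right 5 of the 12 early genes are filled, all below 0.

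For Sst and Adcyap1, both above background on all arrays, the genes with the most similar profile over the 7 rats were sought among 4631 named genes above background on all arrays. The closest to Sst were Gstm7 (Pearson r 0.977), Tpsb2 (r 0.972) and Apoa4 (r 0.969). NP 4 was the lowest rat for Sst (10.88), Gstm7 (10.32), Tpsb2 (8.27) and Apoa4 (7.09). How far these correlations rest on that array was not tested. The closest to Adcyap1 were Slc8a1 (r 0.978), Mrgprf (r 0.955) and Nkg7 (r 0.954). With 7 points that share arrays and scan dates and so many genes searched, these values describe the profiles and carry no test.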

How the data were processed

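The deposited scanner tables give, per the file headers, a mean spot intensity, a median local background intensity, a subtracted intensity and a scaled intensity for each spot. A deposited series table holds log2 values as the authors processed them, by steps not given in the sources used here. Its columns follow the scaled intensity of the same array, with medians from -0.07 to 0.05, and a further adjustment between arrays is unknown. The scanner's software is also not stated there.

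Groups came from the sample titles. With limma 3.58.1 in R 4.3.3, intensities were corrected by normexp (offset 50) and quantile normalized over 33849 transcript probes. Control spots entered only the background correction. Spots with a mask, shape or contamination flag were treated as missing, and no spot of the 12 probes had one. Probes above background on at least 3 of 7 arrays were kept, and 29003 could be fitted. Lines were compared with lmFit and eBayes without a block, with Benjamini-Hochberg adjustment over all tested probes, and a call is an adjusted p under 0.05. Differences are P minus NP. The fit was tested on simulated data. The number of arrays limits the precision.

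Accessions without versions named 7207 probes through the GRCr8 RefSeq table. All listed members were named, and from each gene list the called genes with the smallest p or, with none called, the gene with the smallest p. Further list genes are given for their roles. For Sst and Adcyap1 the 3 genes of most similar profile were named. Members, lists and tests were chosen with earlier results of these data known. Figures were drawn with matplotlib 3.10.9. Alternatives were other background, scaling, filter and variance settings, the authors' values, scan date or replicate number as a block, scan date 1 alone and each array left out.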

Additional observations from a re-analysis of the deposited data

How the results depend on the processing

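None of the 12 probes was called between P and NP under any of the 16 alternatives run (Sstr3 was not tested among probes above background on all 7 arrays, which left 11), and outside the 2 scan date settings their adjusted p was 0.315 or higher. The count over all probes was 84, and became 51 in the authors' processed values, 49 among probes above background on all 7 arrays, 1655 in the fit blocked by scan date and 1847 within scan date 1. Leaving out single arrays gave 51 to 121, with 53 without NP 3 and 51 without NP 4. The P 3 and P 4 comparison, with 4030 calls, gave 1 with plain background subtraction and 2 in the authors' values, and its call among the 12 probes became 0 in both. The cause of these shifts was not tested.

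The sign of a probe's difference changed in 27 of 191 comparisons with an alternative, and none of these was a call. With median scaling the differences were 0.020 for Sstr2 probe GE21868, -0.073 for Sstr3, 0.0093 for Vipr1 and -0.011 for Adcyap1r1 probe GE19473. In the authors' values Sstr3 differed by -0.067. Adcyap1r1 probe GE21572 (0.24) became 0.39 with plain background subtraction and 0.38 in the authors' values, and Sstr4 probe GE20130 (0.11) became 0.22 and 0.25. Within scan date 1 and with the date block alike they were 0.033 for Sstr2 probe GE21868, 0.11 for Vipr1 and 0.14 for Vipr2. With single arrays left out, ranges were -0.020 to 0.12 for Sstr1, -0.035 to 0.0072 for Sstr2 probe GE21868, 0.050 to 0.27 for Sstr2 probe GE20674, -0.070 to 0.13 for Sstr3, -0.86 to 0.053 for Sstr4 probe GE21889, 0.016 to 0.18 for Sstr4 probe GE20130, 0.060 to 0.16 for Adcyap1, -0.077 to 0.051 for Vipr1, -0.11 to 0.078 for Vipr2 and -0.022 to 0.15 for Adcyap1r1 probe GE19473.

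Deviations of rats with the same replicate number correlated at 0.10, 0.06 and 0.02 for numbers 2, 3 and 4. The sample titles do not say what these numbers stand for. The P and NP rats numbered 3, and those numbered 4, were scanned on different dates. These values therefore cannot show whether the numbers pair the rats. With replicate number as a block 102 probes were called and 0 of the 12, and Sstr1 (-0.020) and Sstr3 (-0.014) changed sign. With so few arrays, differences well under the intervals given are not resolved, and for Sstr3 the signal is close to background.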
